A study of Homo sapiens with 4 samples.

Results

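The 56 genes described here encode kinases, kinesins and other proteins of the mitotic spindle, the kinetochore and cell division. They form a fixed list of symbols that, like the other gene lists used below, was chosen with earlier results of these data known. Each symbol matched 1 of the 60279 genes listed in every count table. All 56 also passed the filter on low counts, which kept 14269 genes whose counts, scaled to counts per 1000000 gene counts (CPM), averaged at least 1. Messenger RNA was sequenced from SUM159, an established triple-negative breast cancer line, in 1 library for each of 4 conditions (untreated, palbociclib, indisulam, and both drugs together, called the combination). Palbociclib blocks CDK4 and CDK6, the kinases that start the cell cycle by phosphorylating RB. Indisulam is a sulfonamide that ties RBM39, a splicing factor, to DCAF15, a receptor of a ubiquitin ligase, so that RBM39 is destroyed. All cultures, untreated included, were grown with serum, insulin and hydrocortisone. The sample labels give 0.5 µM palbociclib and 2 µM indisulam for 10 days. The series text gives 2 µM palbociclib and 3 µM indisulam for 16 h, in technical duplicates, so dose and duration are not settled by the sources used here. No source says whether duplicates were merged into these libraries, and with 1 library per condition no comparison had a replicate check or a p-value.

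A cell divides its chromosomes on a spindle of microtubules, which is built and steered by CDK1 with its cyclins, by Polo-like and Aurora kinases and by kinesin motors. The spindle assembly checkpoint holds the cell until every kinetochore is attached, after which the anaphase-promoting complex (APC/C) marks cyclin B1 and securin for destruction and sister chromatids part. Most of these genes are transcribed late in the cell cycle. In resting cells the DREAM complex represses them through a promoter element called CHR (cell cycle genes homology region), and in cycling cells B-Myb and FOXM1 join the MuvB core of that complex and activate them, often together with NF-Y bound at CCAAT boxes. In a bulk library, fewer cells in mitosis and less mRNA per cell cannot be told apart.

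Gene totals were 12555908, 12691481, 16712174 and 14359529 counts in the untreated, palbociclib, indisulam and combination libraries, so that 3 counts stood for 0.180 to 0.239 CPM. The lowest count of any of the 56 genes was 20 (SPC25, palbociclib library) and the highest 4215 (CDC25B, indisulam library). The mesenchymal markers VIM and FN1 were abundant in every library (36565 to 57726 and 129478 to 253480 counts). CD44 had 9628 to 12680 counts, and the epithelial keratin genes KRT8 and KRT18 had 5283 to 9602 and 2038 to 3573. ESR1 had 4 to 16 counts and PGR 0 to 3, while ERBB2 had 1628 to 1831. CD3E had 0 counts throughout, PTPRC had 153 to 292 and CD14 66 to 116. Of the endothelial genes, PECAM1 had 191 to 519 and CDH5 0 to 23 counts, both highest in the palbociclib library, while VWF had 4 to 17 and was lowest there. HBB and HBA1 had 0 or 1 count. The part of such transcripts in the results was not tested.

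A gene was called higher or lower when it differed at least 2-fold between 2 libraries and its 95% Poisson counting interval excluded a ratio of 1. These intervals cover counting error only, not the spread between cultures. Ratios were taken between depth-scaled counts after adding a pseudocount of 1, and are given on the log2 scale.

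The promoters come first. Their sequence was not used to choose the list, but CHR and CCAAT are the elements named above for genes of this kind. Their shares therefore describe the list and are no independent check. RefSeq promoter entries were found for 49 of the 56 genes, all but AURKA, TTK, BIRC5, BUB3, TPX2, UBE2C and FOXM1. An entry (GRCh38.p14) runs from 250 bases before to 50 after a start, and 1 entry was used per gene. This start can differ from the gene start in the positions given below. For KIF20A and PLK1 the printed stretch lies inside the gene, and other starts were not searched. Promoters of 8 genes are printed here from 150 bases before to 20 after the start, on the strand of the gene. They belong to the 6 genes with an entry that had the lowest palbociclib to untreated ratio and the 2 genes with the highest. Capitals mark the CHR letters TTTGAA and their variants (TTCGAA in some genes and TTTAAA in others) as well as the NF-Y letters CCAAT, on either strand, so that CCAAT on the other strand reads ATTGG.
KIF20A promoter, chr5:138178962-138179131, plus strand: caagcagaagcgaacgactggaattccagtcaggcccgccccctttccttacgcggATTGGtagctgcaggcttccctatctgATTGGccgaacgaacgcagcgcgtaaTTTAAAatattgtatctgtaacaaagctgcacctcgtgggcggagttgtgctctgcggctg
KIF2C promoter, chr1:44739687-44739856, plus strand: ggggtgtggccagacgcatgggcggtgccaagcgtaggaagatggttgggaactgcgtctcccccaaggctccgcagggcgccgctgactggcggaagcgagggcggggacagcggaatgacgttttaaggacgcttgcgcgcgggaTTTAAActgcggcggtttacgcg
PTTG1 promoter, chr5:160421705-160421874, plus strand: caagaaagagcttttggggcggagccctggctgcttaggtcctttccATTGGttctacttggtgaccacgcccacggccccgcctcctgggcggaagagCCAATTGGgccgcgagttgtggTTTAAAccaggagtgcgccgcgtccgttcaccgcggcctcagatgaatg
PLK1 promoter, chr16:23678739-23678908, plus strand: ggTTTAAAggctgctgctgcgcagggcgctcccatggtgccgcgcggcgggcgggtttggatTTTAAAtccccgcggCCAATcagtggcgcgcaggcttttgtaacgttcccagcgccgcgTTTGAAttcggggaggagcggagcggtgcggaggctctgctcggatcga
CCNA2 promoter, chr4:121823864-121824033, minus strand: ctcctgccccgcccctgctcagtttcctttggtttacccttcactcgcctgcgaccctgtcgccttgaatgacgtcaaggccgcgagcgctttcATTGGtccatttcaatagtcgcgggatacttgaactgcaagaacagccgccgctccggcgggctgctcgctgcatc
NEK2 promoter, chr1:211675602-211675771, minus strand: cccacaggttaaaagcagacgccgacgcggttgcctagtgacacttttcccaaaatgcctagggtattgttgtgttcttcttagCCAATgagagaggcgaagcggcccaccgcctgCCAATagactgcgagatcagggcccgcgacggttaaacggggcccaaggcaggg
KIF20B promoter, chr10:89701440-89701609, plus strand: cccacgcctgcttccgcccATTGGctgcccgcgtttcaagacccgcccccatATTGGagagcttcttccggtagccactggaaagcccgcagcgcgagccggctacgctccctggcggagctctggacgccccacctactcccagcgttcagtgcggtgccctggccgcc
NCAPG promoter, chr4:17810829-17810998, plus strand: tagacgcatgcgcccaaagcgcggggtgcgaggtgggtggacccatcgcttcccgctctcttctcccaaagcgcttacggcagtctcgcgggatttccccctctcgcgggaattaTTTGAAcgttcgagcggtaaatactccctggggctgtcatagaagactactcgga

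Among the 6 promoters of strongly lowered genes, KIF20A, KIF2C and PTTG1 each held 1 TTTAAA, PLK1 held 2 besides a TTTGAA, and CCNA2 and NEK2 held none of these CHR spellings in the searched window. CCAAT letters stood in 5 of the 6, with KIF2C as the exception. The promoter of NCAPG, at the other end of the ranking, had a TTTGAA and no CCAAT. In KIF20B, CCAAT stood at 2 places and the 2 TTTGAA lay downstream of the printed stretch, within 50 bases after the start.

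The 2 chosen ends therefore did not divide by these letters, yet the list as a whole carried them often. TTTGAA was found on either strand in 32 of 49 promoters (65.3%), against 15.4% of all 27305 promoters of the same length. In the nearer window from 60 bases before to 50 after the start it was found in 55.1% of the 49 and in 5.07% of all. TTTAAA, a spelling added after the letters had been seen, was in 30.6% against 12.4% of all. CCAAT was in 73.5% against 35.7%, and at least 2 copies of it were in 42.9% against 11.3%. TTTGAA or TTCGAA stood together with CCAAT in 57.1% of the 49 and in 6.58% of all promoters. The 94 promoters of other mitotic genes, described further below, held TTTGAA in 37.2% and CCAAT in 53.2%, with at least 2 copies in 26.6%. These shares were lower than in the 49 but above those of all promoters, so the 2 elements were not particular to the 49. TTTAAA was in 5.32% of the 94, below the share of all promoters.

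E2F-type letters, which here means TTCCCGC with its variants TTGGCGC and also TTCGCGC and further TTGCCGC, were in 32.7% of the 49 promoters and in 13.1% of all. The 40 promoters of DNA replication genes, which encode the helicase, polymerase and nucleotide synthesis machinery of S phase, held E2F-type letters in 77.5% and TTTGAA in 2.5%. CCAAT was in 57.5% of them, with at least 2 copies in 32.5%, also above the shares of all promoters. The 94 promoters of other mitotic genes held E2F-type letters in 38.3%, above the 32.7% of the 49. The TATA letters TATAAA were in 6.12% of the 49 mitotic promoters and 12.0% of all. TTGGCGC can overlap a reversed CCAAT, with which it shares TTGG. A match of letters is a description and not a site of binding.

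**Figure D1:**
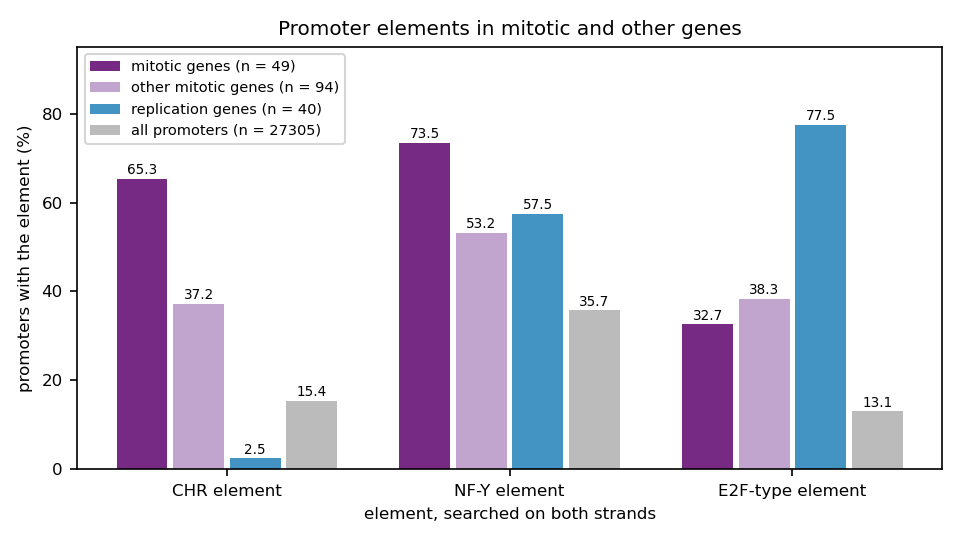
Share of promoters (vertical axis, %) that hold the CHR letters TTTGAA, the NF-Y letters CCAAT or E2F-type letters on either strand, for 49 mitotic, 94 other mitotic and 40 replication genes and all 27305 promoters. CHR letters were in 65.3% of mitotic, 37.2% of other mitotic and 2.5% of replication promoters, and E2F-type letters in 32.7%, 38.3% and 77.5%.

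With palbociclib alone, mitotic genes were lower as a body. Of the 56 genes, 30 fell, or 53.6%, against 4.95% of all 14269 genes tested, and none rose, against 5.96%. The list was chosen with earlier results of these data known, so these and later shares describe it and are no independent check. The median ratio of the 56 was -1.08 and that of all genes tested was -0.02. Every ratio lay below 0, from -2.32 to -0.05, although under upper-quartile scaling 1 of the 56 moved above 0. The palbociclib library held the lowest CPM of 55 genes, CDC25B being the exception. Together the 56 genes made up 0.318% of gene counts in the untreated library and 0.159% in the palbociclib library. PRC1 at 49.9% and CCNB1 at 48.4% of untreated were the called genes nearest the threshold, and TPX2 at 50.3% and CDK1 at 50.8% were the nearest on its other side.

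With indisulam alone most ratios lay above 0, but few genes were called. Only 3 genes rose (KIF18A, KIF23 and NCAPG), or 5.36%, a share below the 8.44% of all genes tested, and none fell, against 6.71%. This order turned with the threshold: at 1.5-fold, 24 of the 56 were higher, or 42.9%, against 17.3% of all genes. The median ratio was 0.51, beside 0.06 for all genes, and 48 of 56 ratios lay above 0 (46 to 48 under the other scalings). The indisulam library held the highest CPM of 44 of the 56 genes, and their summed share of gene counts was 0.407%.

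In the combination the median lay close to untreated, but single genes lay on both sides of it, and for 43 of the 56 the counting interval of the ratio to untreated did not contain 0. KIF23 and ANLN rose, which made 2 genes or 3.57%, against 13% of all genes tested, and BUB1, AURKB and CDC25B fell, which made 3 genes or 5.36%, against 10.6%. At 1.5-fold 17 of the 56 were called in either direction, against 42.6% of all genes. The median ratio to untreated was 0.03, with 30 genes above 0, but it was -0.02 and -0.05 with 26 and 25 genes above 0 under TMM and median-of-ratios scaling. The summed share of gene counts was 0.297%. Measured against palbociclib alone, 32 genes were higher in the combination, or 57.1%, against 9.62% of all genes, and none lower, against 7.4%. That comparison shares the palbociclib library with the one above, so a low value there lowers the first ratio and raises the second.

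Of the 30 genes lowered by palbociclib, 21 were called higher in the combination than with palbociclib alone, and none of these 21 was called against untreated in the combination. They are termed restored here, which need not mean a full return, and 18 were left under each other scaling. They made up 37.5% of the 56 genes, against 1.25% of all genes tested, and 70.0% of the 30 lowered genes, against 25.3% (179) of all 707 genes lowered by palbociclib. Of the 30, BUB1 and AURKB were still called lower than untreated. The other 7 (CDC25C, KIF14, NUSAP1, ASPM, CDC20, TOP2A and FOXM1) were called in neither comparison. Their ratios of the combination to palbociclib ran from 0.47 to 0.94. Some restored genes stayed well below untreated in the combination, such as KIF20A (52.7%), PTTG1 (54.5%) and KIF2C (55.4%), with counting intervals below 0. KIF14, not restored, stood at 88.9%. Of the 30 lowered genes, 9 lay above untreated in the combination.

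**Figure D2:**
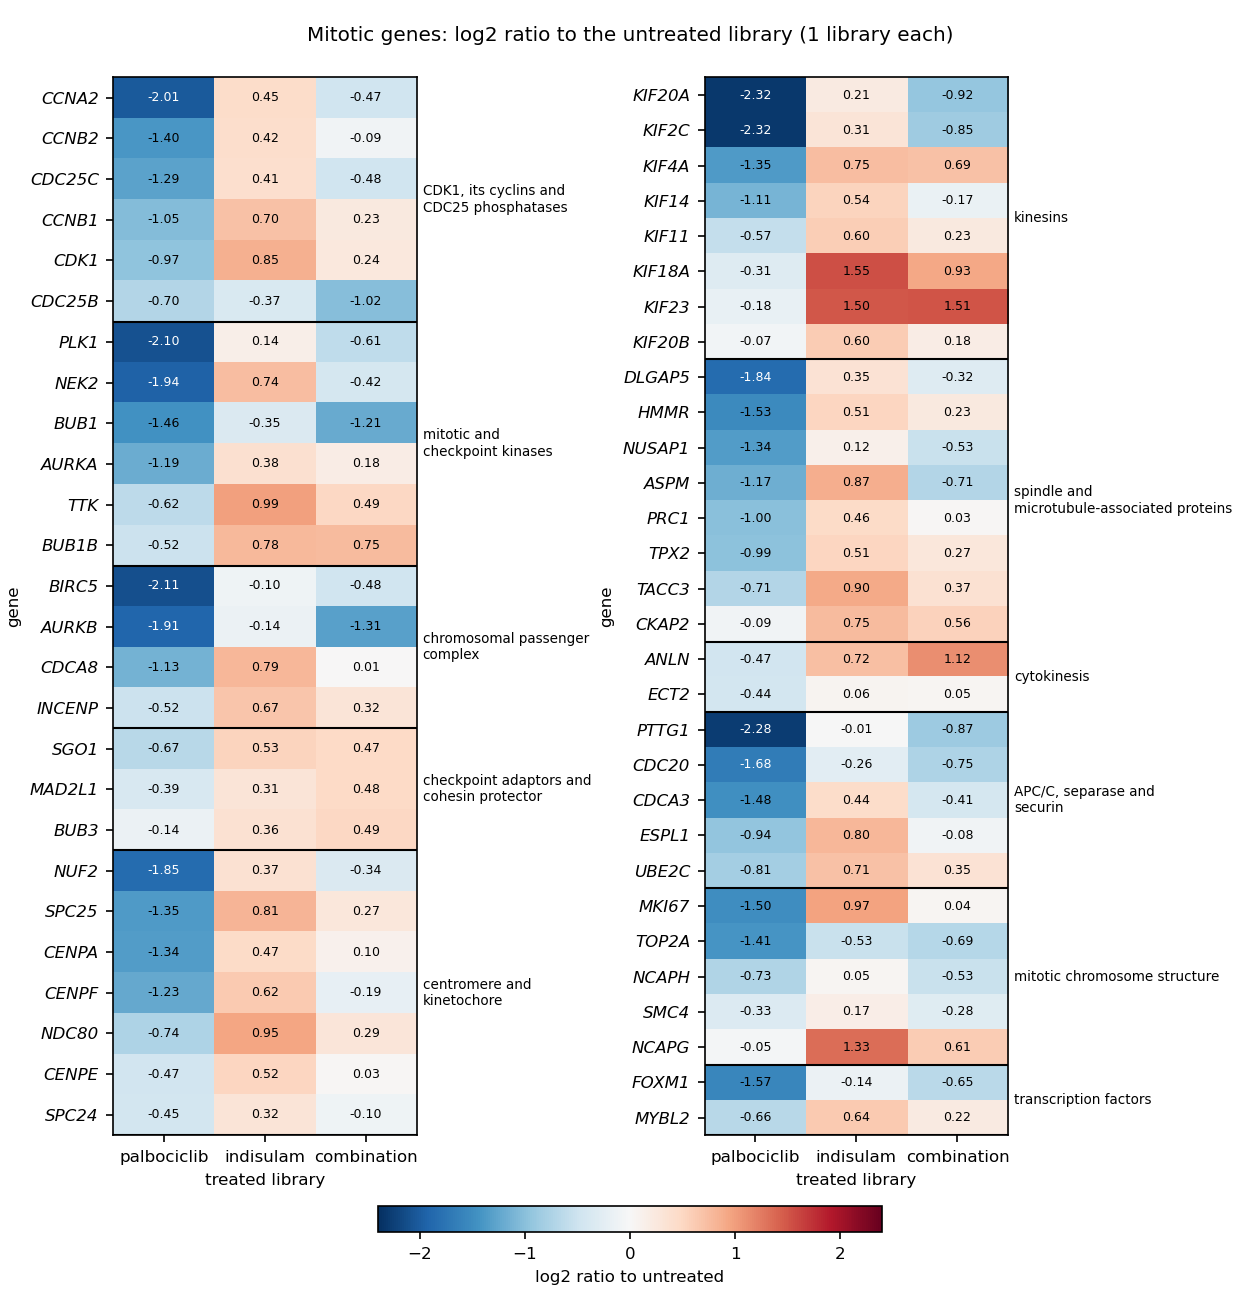
Log2 ratio of each of the 56 mitotic genes to the untreated library (colour and printed value) in the palbociclib, indisulam and combination libraries, grouped by role and sorted by the palbociclib ratio, with 1 library per condition. The palbociclib column runs from -2.32 to -0.05 and is below 0 for all 56 genes, while 30 genes are above 0 in the combination.

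CDK1 and its cyclins drive entry into mitosis, and 4 of the 6 genes of this group fell with palbociclib. In what follows, values for the untreated, palbociclib, indisulam and combination libraries are always given in that order. CCNA2, the gene of cyclin A2, which activates CDK2 and CDK1, lies at chr4:121816444-121823883 and had 509, 127, 924 and 420 counts, or 40.5, 10.0, 55.3 and 29.2 CPM. Its ratio to untreated was -2.01 with palbociclib (95% counting interval -2.29 to -1.73). CCNB1, cyclin B1, the main partner of CDK1, had 1660, 812, 3600 and 2222 counts, or 132, 64.0, 215 and 155 CPM. Both cyclins were lowest with palbociclib and highest with indisulam, but CCNA2 in the combination stayed at 72.2% of untreated while CCNB1 reached 117%.

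CDK1 itself had 572, 294, 1374 and 775 counts, or 45.6, 23.2, 82.2 and 54.0 CPM. At -0.97 (-1.18 to -0.77) it missed the call with palbociclib, and it was higher in the combination than with palbociclib by 1.22 (1.02 to 1.41). CDC25B, a phosphatase that removes the inhibitory phosphates from CDK1, behaved apart from the rest, with 4079, 2543, 4215 and 2303 counts, or 325, 200.4, 252 and 160.4 CPM. It was the only one of the 56 genes that was lowest in the combination, where its ratio to untreated was -1.02 (-1.09 to -0.94). CCNB2 (-1.40) and CDC25C (-1.29) were the other genes of the group that fell with palbociclib.

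Of the 6 mitotic and checkpoint kinases, 4 fell with palbociclib (PLK1, NEK2, BUB1 and AURKA). PLK1, Polo-like kinase 1, acts in centrosome maturation, spindle assembly and cytokinesis. It stood at 53.8, 12.5, 59.2 and 35.2 CPM, a ratio of -2.10 (-2.35 to -1.85) with palbociclib. NEK2, which helps to separate the centrosomes, had 17.8, 4.57, 29.7 and 13.3 CPM. The gene was among the 5 called lower in the combination than with indisulam alone (-1.15). AURKA, the spindle pole kinase Aurora A, fell by 1.19 on the log2 scale with palbociclib.

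BUB1, a kinase that builds the checkpoint platform on kinetochores, had 680, 250, 710 and 336 counts, or 54.2, 19.7, 42.5 and 23.4 CPM. It fell with palbociclib (-1.46) and in the combination (-1.21, -1.40 to -1.02), and adding indisulam to palbociclib moved it by 0.25. BUB1B, which encodes the checkpoint protein BubR1, had 367, 258, 837 and 707 counts, or 29.2, 20.3, 50.1 and 49.2 CPM. Its ratio to palbociclib alone was 1.27 in the combination. TTK, the kinase MPS1 that starts checkpoint signalling, had 311, 204, 821 and 501 counts, or 24.8, 16.1, 49.1 and 34.9 CPM. Its indisulam ratio of 0.99 (0.80 to 1.17) was the fourth highest of the 56 and just missed the call. BUB1B shares exon sequence on the same strand with another gene, so its counts are less certain.

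The chromosomal passenger complex corrects faulty attachments and later guides cytokinesis. Of its 4 genes 3 fell with palbociclib, and the median ratio of -1.52 was the lowest of any group. AURKB, its kinase Aurora B, had 188, 50, 227 and 86 counts, or 15.0, 3.94, 13.6 and 5.99 CPM. AURKB fell with palbociclib (-1.91, -2.35 to -1.46) and in the combination (-1.31, -1.68 to -0.95), and it was lower in the combination than with indisulam alone (-1.17). BIRC5, the gene of survivin, had 1037, 242, 1289 and 850 counts, or 82.6, 19.1, 77.1 and 59.2 CPM. Unlike its partner AURKB it was restored, from 23.1% of untreated with palbociclib to 71.7% in the combination. INCENP, the scaffold of the complex, had 276, 194, 587 and 393 counts, or 22.0, 15.3, 35.1 and 27.4 CPM, and was called in no comparison. CDCA8, borealin, stood at 45.5% of untreated with palbociclib and at 100% in the combination.

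The checkpoint adaptors BUB3 and MAD2L1 and the cohesin protector SGO1 gave no call with palbociclib. BUB3 had 1449, 1325, 2470 and 2332 counts, or 115, 104, 148 and 162 CPM. SGO1, which shields centromeric cohesion until anaphase, had the lowest ratio of these genes (-0.67), with 76, 48, 147 and 121 counts, or 6.05, 3.78, 8.80 and 8.43 CPM. All 3 lay above untreated in the combination, at 139% to 141%.

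Kinetochore and centromere genes fell in 4 of 7 cases, and all 4 were restored, although CENPF was not under the 3 other scalings. NUF2, a subunit of the NDC80 complex that grips microtubule ends, had 223, 62, 383 and 201 counts, or 17.8, 4.89, 22.9 and 14.0 CPM. The palbociclib ratios of the 4 subunits were -1.85 for NUF2 (-2.25 to -1.45), -1.35 for SPC25, -0.74 for NDC80 (-1.05 to -0.42) and -0.45 for SPC24 (-0.73 to -0.16), so that the intervals of NDC80 and SPC24 lay apart from that of NUF2. SPC24 had 231, 171, 383 and 246 counts, or 18.4, 13.5, 22.9 and 17.1 CPM, and was called in no comparison. SPC25 rests on the fewest counts of the 56 genes (52, 20, 122 and 72), and its interval was wide (-2.07 to -0.64) and overlapped that of each other subunit. CENPA, the histone variant that marks centromeres, fell by 1.34 on the log2 scale, and CENPF, a large outer kinetochore protein, by 1.23. CENPE, a kinetochore motor, stood at -0.47.

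The kinesins spanned the widest range of any group, holding both the lowest ratio with palbociclib and a ratio close to 0. KIF20A, a motor that carries the passenger complex to the central spindle, lies at chr5:138178719-138187723 and had 919, 185, 1412 and 554 counts, or 73.2, 14.6, 84.5 and 38.6 CPM. KIF2C, which takes microtubule ends apart at centromeres, lies at chr1:44739818-44767767 and had 646, 130, 1066 and 409 counts, or 51.4, 10.2, 63.8 and 28.5 CPM. Both fell by 2.32 on the log2 scale with palbociclib, to 19.9% of untreated. They remained at 52.7% and 55.4% of untreated in the combination, which was called lower than indisulam alone for both (-1.13 and -1.16).

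KIF20B, a motor of late cytokinesis, had 298, 287, 602 and 386 counts, or 23.7, 22.6, 36.0 and 26.9 CPM, and its palbociclib interval contained 0 (-0.30 to 0.16). KIF23, the motor of the centralspindlin complex, had 435, 387, 1637 and 1417 counts, or 34.6, 30.5, 98.0 and 98.7 CPM. Both libraries that received indisulam were thus close to each other and far above the 2 that did not. KIF23 rose with indisulam, to 283% of untreated, and in the combination (1.51, 1.35 to 1.66), and the difference between these 2 libraries was 0.01 (-0.09 to 0.11). KIF18A, which dampens chromosome movement before anaphase, had 186, 152, 726 and 406 counts, or 14.8, 12.0, 43.4 and 28.3 CPM. At 1.55 (1.32 to 1.78) it had the highest indisulam ratio of the 56.

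KIF4A, a motor on chromosome arms and the central spindle, had 454, 179, 1015 and 841 counts, or 36.2, 14.1, 60.7 and 58.6 CPM. It fell with palbociclib (-1.35) and showed the largest gain of the 56 genes when indisulam was added to palbociclib (2.05, 1.82 to 2.28). KIF14, which acts in cytokinesis, fell with palbociclib (-1.11). KIF11, the motor that pushes spindle poles apart, stood at -0.57.

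**Figure D3:**
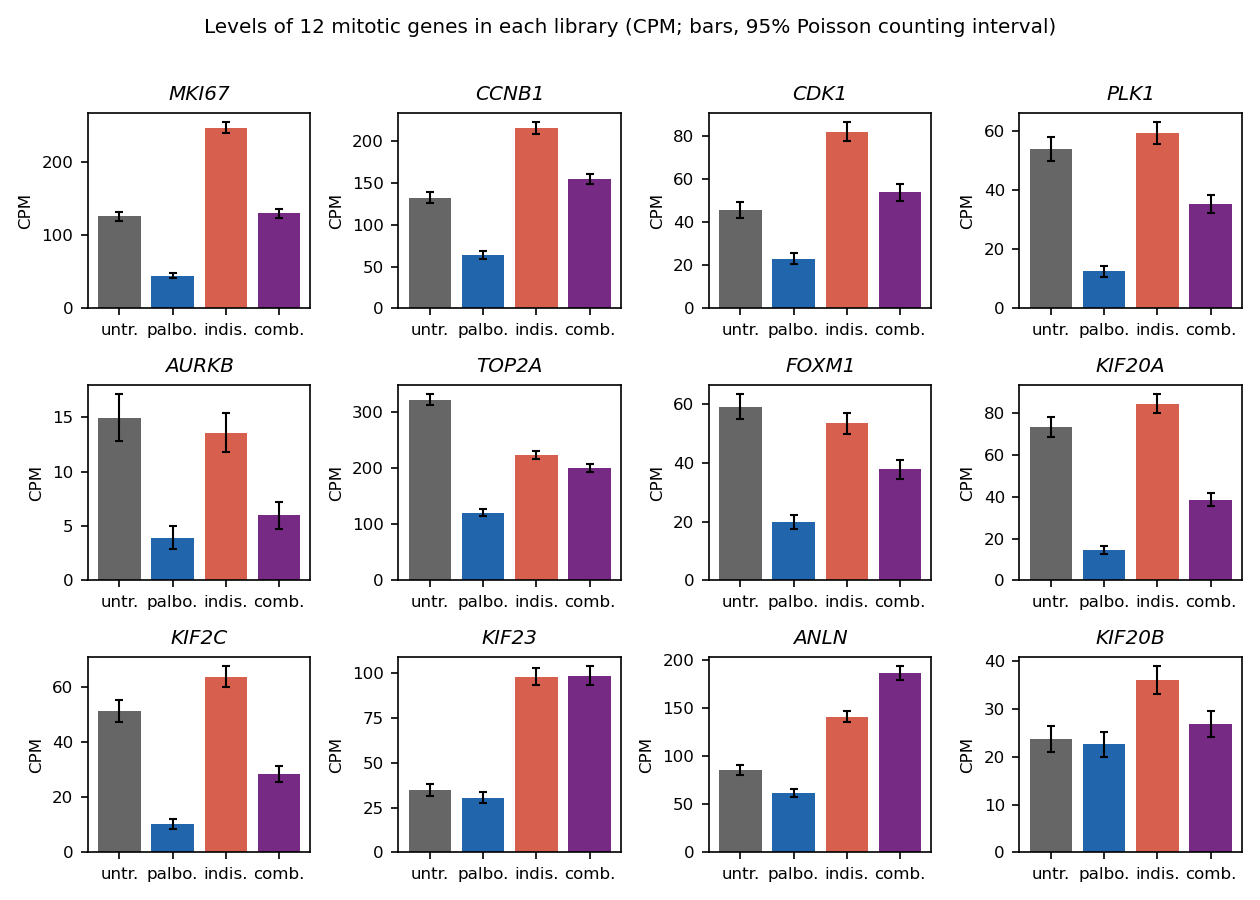
Level of 12 mitotic genes (vertical axes, CPM, each from 0) in the untreated, palbociclib, indisulam and combination libraries, 1 library each, with bars for the 95% Poisson counting interval. KIF20A and KIF2C drop to 14.6 and 10.2 CPM with palbociclib, KIF23 stands at 98.0 and 98.7 CPM in both libraries that received indisulam, and KIF20B stays between 22.6 and 36.0 CPM.

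Spindle and microtubule-associated proteins fell with palbociclib in 5 of 8 cases (DLGAP5, HMMR, NUSAP1, ASPM and PRC1). DLGAP5, a stabilizer of spindle fibres near chromosomes, had 548, 154, 929 and 503 counts, or 43.6, 12.1, 55.6 and 35.0 CPM. HMMR, which focuses spindle poles, had 367, 128, 696 and 494 counts, or 29.2, 10.1, 41.6 and 34.4 CPM. Both were restored, HMMR to 118% of untreated and DLGAP5 to 80.3%. PRC1, which bundles the microtubules of the central spindle, sat at the threshold, and its call was lost under each other scaling and with a pseudocount of 5. It had 96.4, 48.1, 132 and 98.3 CPM.

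ASPM, a spindle pole protein, had 66.0, 29.2, 121 and 40.4 CPM, so that the combination lay at 61.2% of untreated and indisulam alone at 183%. The combination was lower than indisulam by 1.58 on the log2 scale (-1.71 to -1.45), the largest such difference among the 56 genes. CKAP2, another spindle protein, had 570, 543, 1280 and 960 counts, or 45.4, 42.8, 76.6 and 66.9 CPM, and its palbociclib interval contained 0. TPX2, an activator of Aurora A, and TACC3, a spindle fibre protein, missed the palbociclib call at -0.99 and -0.71, and NUSAP1, a microtubule bundler, fell by 1.34 on the log2 scale.

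Of the cytokinesis genes, neither was called with palbociclib. ANLN, anillin, the scaffold of the contractile ring, had 1076, 786, 2353 and 2670 counts, or 85.7, 61.9, 141 and 186 CPM. ANLN rose in the combination against untreated (1.12, 1.01 to 1.22), and its combination library was the highest of the 4. ECT2, the exchange factor that activates RhoA at the cell equator, had 782, 581, 1085 and 928 counts, or 62.3, 45.8, 64.9 and 64.6 CPM. The combination and indisulam libraries did not differ beyond counting error for ECT2 (-0.01, -0.13 to 0.12).

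In the group of APC/C, separase and securin genes, 3 of 5 fell (CDC20, PTTG1 and CDCA3). PTTG1, which encodes securin, the inhibitor of separase, had 982, 203, 1296 and 612 counts, or 78.2, 16.0, 77.5 and 42.6 CPM. Its palbociclib ratio of -2.28 (-2.50 to -2.07) was the third lowest of the 56. CDC20, the activator of the APC/C, had 1189, 375, 1323 and 810 counts, or 94.7, 29.5, 79.2 and 56.4 CPM. For PTTG1 the untreated and indisulam libraries thus did not differ beyond counting error (-0.01, -0.13 to 0.11), while CDC20 lay lower with indisulam (-0.26). UBE2C, the ubiquitin-conjugating enzyme of the APC/C, had 344, 198, 749 and 500 counts, or 27.4, 15.6, 44.8 and 34.8 CPM. ESPL1, separase, stood at -0.94, and CDCA3, a regulator of mitotic entry, fell to 35.6% of untreated. Reads that align to more than 1 place were not counted, so a gene with near-identical copies elsewhere, as is known for PTTG1, may be undercounted.

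Genes of mitotic chromosome structure were divided. MKI67, the proliferation marker Ki-67 that coats mitotic chromosomes, had 1578, 565, 4116 and 1859 counts, or 126, 44.5, 246 and 129 CPM. TOP2A, the topoisomerase that untangles sister chromatids, had 4032, 1531, 3717 and 2862 counts, or 321, 121, 222 and 199 CPM. Both fell with palbociclib, to 35.4% and 37.6% of untreated, but indisulam alone took MKI67 to 196% of untreated and TOP2A to 69.3%, the lowest indisulam value of the 56 genes. NCAPG, a condensin I subunit, had 264, 258, 887 and 461 counts, or 21.0, 20.3, 53.1 and 32.1 CPM. It had the highest palbociclib ratio of the 56 (-0.05, -0.30 to 0.20) and rose with indisulam (1.33, 1.14 to 1.53). NCAPH and SMC4, which belong to the same condensin, stood at 0.05 and 0.17 with indisulam.

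The 2 transcription factors of the list were measured at the mRNA level only. FOXM1 had 743, 252, 895 and 543 counts, or 59.2, 19.9, 53.6 and 37.8 CPM, and fell with palbociclib (-1.57, -1.78 to -1.37). MYBL2, the gene of B-Myb, had 190, 121, 394 and 254 counts, or 15.1, 9.53, 23.6 and 17.7 CPM. Its palbociclib ratio of -0.66 was not called. FOXM1 in the combination stood at 63.9% of untreated and MYBL2 at 117%.

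Across the 56 genes, the CPM in the palbociclib library had a median of 47.3% of untreated, with a range of 19.9% to 96.7%. The median was 143% with indisulam (69.3% to 293%) and 102% in the combination (40.0% to 285%). The largest group, 26 genes, followed the order palbociclib, untreated, combination, indisulam from low to high, and 18 the order palbociclib, combination, untreated, indisulam. These 2 orders differ only in the rank of untreated and combination, and for 13 of the 56 genes the counting interval of that ratio contained 0. Another 7 genes had their highest level untreated but their lowest with palbociclib, and 4 were highest in the combination.

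Compared per kilobase of exon, the most abundant mRNAs in the untreated library were those of CDC25B (83.2 CPM per kb), CCNB1 (54.3), TOP2A (50.4), CDC20 (47.1) and PTTG1 (39.6). ESPL1 (2.00 CPM per kb) and SGO1 (1.62) were the least abundant. On this scale of levels, CCNB1 passed CDC25B in the indisulam library, with 88.5 against 64.6 CPM per kb.

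Both drugs could also be compared in the presence of the other, with no library in common. The palbociclib effect without indisulam (palbociclib against untreated) and with it (combination against indisulam) had medians of -1.08 and -0.50. In both, 52 of 56 genes lay below 0, and the effect without indisulam was the larger in 49. Only 5 genes were called lower in the combination than with indisulam (ASPM, AURKB, KIF2C, NEK2 and KIF20A), or 8.93%, against 3.19% of all genes tested, and none higher, against 5.09%. At 1.5-fold 24 genes were lower, against 10.3% of all genes. Over the 56 genes, which are not independent replicates, Pearson's r between the estimates was 0.56 and Spearman's rho 0.55.

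For indisulam the medians were 0.51 without palbociclib and 1.07 with it, and 48 genes lay above 0 in both. The effect with palbociclib was the larger in all but 9 genes. Pearson's r over the 56 genes was 0.35 and Spearman's rho 0.27. Among the 47 replication genes the same pair of indisulam estimates had medians of 0.55 and 0.40, so the larger value came without palbociclib.

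**Figure D4:**
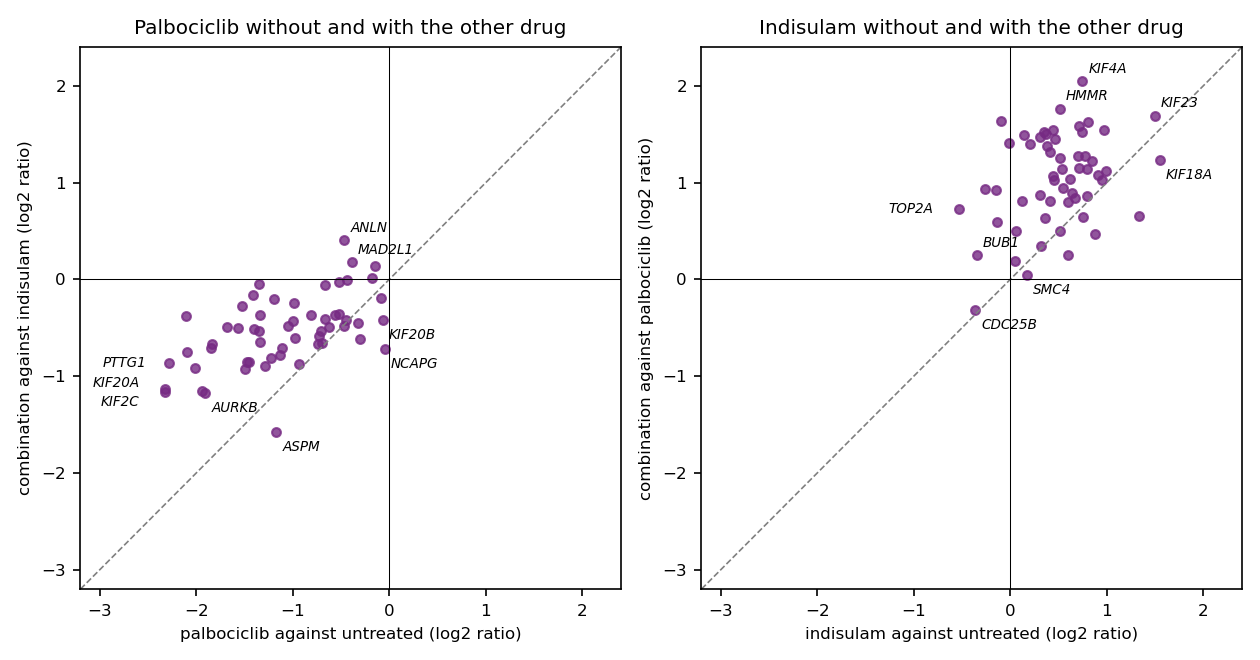
Each point is 1 of 56 mitotic genes; the left panel plots the palbociclib log2 ratio with indisulam (vertical) against that without it (horizontal), and the right panel does the same for indisulam with and without palbociclib. On the left 49 genes have the larger size without indisulam, and on the right most points lie above the dashed line of equal ratios.

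The departure from additivity is the combination ratio minus the sum of the 2 single-drug ratios, all to untreated, so that a positive value means a level above that sum. For each gene it equals the ratio for either drug with the other present minus that without it. The departure thus restates the shifts above and is no separate support for them. For the 56 genes the median was 0.57, beside 0.01 for all genes tested, and 49 lay above 0, also under each other scaling. In all, 13 were called above the sum, or 23.2%, against 4.11% of all genes, and none below it, against 3.93%. At 1.5-fold 24 departures were called, against 19.1% of all genes in either direction. The 13 were BIRC5 (1.73), PTTG1 (1.42), PLK1 (1.35), KIF4A (1.30), HMMR (1.25), TOP2A (1.25), KIF20A (1.19), CDC20 (1.19), DLGAP5 (1.18), KIF2C (1.16), NUF2 (1.14), CCNA2 (1.09) and FOXM1 (1.07). All 13 had been called lower with palbociclib, which shares its libraries with this measure. For genes between 20 and 100 CPM, the robust SD of the departure over all genes tested was 0.37. The lowest values among the 56 were those of NCAPG (-0.68) and ASPM (-0.41).

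The 112 further mitotic genes that were examined gave a weaker picture. With palbociclib 13 fell, or 11.6%, against 4.95% of all genes tested. Another 3 rose, or 2.68%, against 5.96%, and the median ratio was -0.17. Of 15 other kinesin and spindle genes 5 fell, or 33.3%, among them TROAP (-1.70), PSRC1 (-1.28) and KIF18B (-1.22). Of 33 other kinetochore genes 5 fell, or 15.2%, with SKA1 (-1.68), CENPH (-1.44) and the centromere chaperone HJURP (-1.35), but the median of the 33 was 0.00. None of 14 core APC/C subunits was called in any comparison. Of 16 other condensin and cohesin genes only NCAPD2, a further subunit of condensin I, fell with palbociclib (206, 59.6, 128 and 70.9 CPM). That 1 gene is 6.25% of its list, close to the 4.95% of all genes tested. NCAPD2 was also called lower in the combination (-1.54), or 6.25%, against 10.6% of all genes. Of 7 other cytokinesis genes CEP55 fell (-1.16), or 14.3%, and of 15 other kinases and regulators CCNF, cyclin F, did (-1.24), or 6.67%. Each of these shares rests on 1 gene, and 6.67% is close to the 4.95% of all genes tested. Measured against palbociclib alone, 16 of the 112 were higher in the combination, or 14.3%, against 9.62% of all genes tested. None was lower, against 7.4%. Of the 13 genes lowered by palbociclib, 7 were restored, beside 21 of the 30 lowered genes above and 179 of all 707. Restoration was therefore not limited to those 30 genes, although 13 is a small number.

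Of 12 genes that encode subunits of MuvB and DREAM or their partners, 2 rose with palbociclib, or 16.7%, against 5.96% of all genes tested. None fell and the other 10 were not called. MYBL1, which encodes A-Myb, a relative of B-Myb, had 9.08, 22.9, 8.68 and 29.7 CPM, so that both libraries that received palbociclib were high. LIN9, a subunit of the MuvB core, had 4.30, 10.9, 9.10 and 12.0 CPM. The median of the 12 was 0.38.

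Replication genes differed from the 56 with palbociclib, with 5 of 47 higher (10.6%, against 5.96% of all genes tested). Another 5 were lower (10.6%, against 4.95%), and the median of the 47 was 0.17. Their departure from additivity was -0.03 in the median. FEN1, the flap nuclease of lagging strand synthesis, rose (1.28), while TK1, thymidine kinase, and the licensing factor CDT1 fell (-1.37 and -1.34). With indisulam the medians were 0.55 in the replication genes and 0.51 in the 56 mitotic genes.

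**Figure D5:**
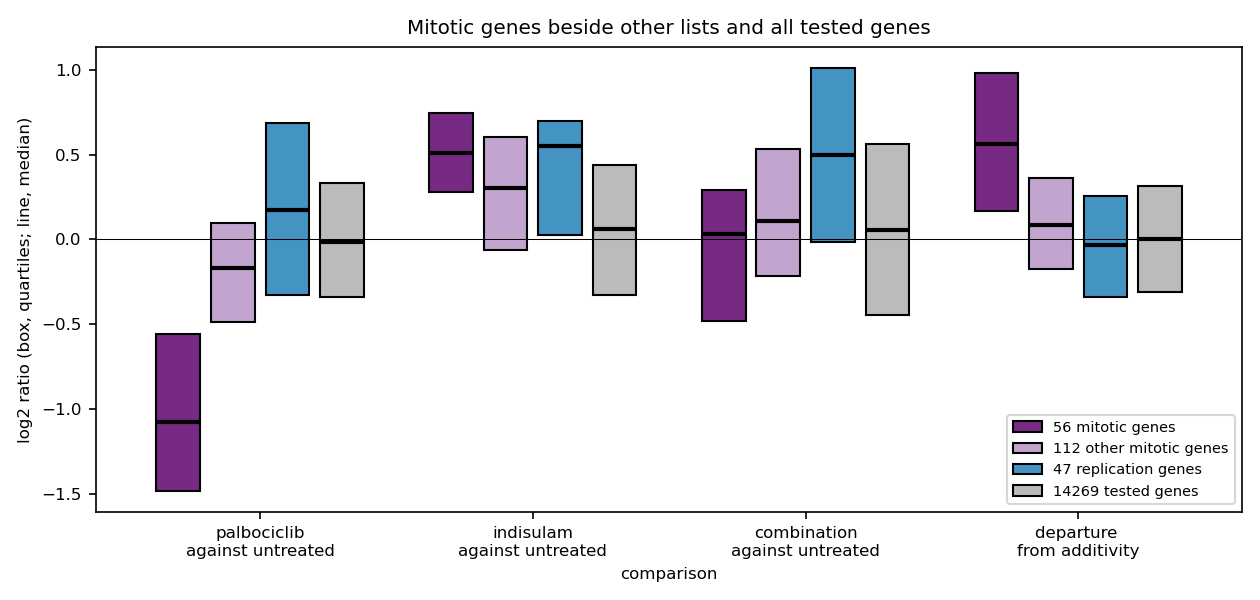
Log2 ratios (vertical axis; boxes span the quartiles and lines mark the medians) of 56 mitotic, 112 other mitotic, 47 replication and all 14269 tested genes in 3 comparisons with the untreated library and in the departure from additivity. With palbociclib the mitotic median is -1.08 and the replication median 0.17, and in the departure they are 0.57 and -0.03.

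Within the 49 genes with a promoter entry, the letters could be set against the response. The median palbociclib ratio was -1.28 in 36 genes with CCAAT, of which 24 fell, and -0.66 in 13 without it, of which 3 fell. For TTTGAA or TTCGAA the medians were -1.12 in 34 genes with and -1.05 in 15 genes without, and 19 and 8 fell. The genes without include KIF20A (-2.32), KIF2C (-2.32), PTTG1 (-2.28), CCNB1 (-1.05), NCAPH (-0.73) and CENPE (-0.47), which hold TTTAAA. This split therefore does not sort the genes by all CHR spellings marked above. The promoters were described after the ratios were known, and no test was run on these splits.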

How the data were processed

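Each of the 4 RNA libraries came from SUM159 cells, was poly(A)-selected and strand-specific, and formed a group of its own, as given by the treatment label. For RNA extraction the labels name Trizol, whereas the methods of the study name a silica column kit. The authors deposited raw read counts per Ensembl gene. The submitters' processing notes name TopHat2 2.1, HTSeq and build GRCh38, and the strand setting of the counting and the annotation release were not given in the sources used here. Tallies of reads in no gene (0.615% to 0.694% of all), in several genes (2.41% to 2.63%) or at several places in the genome (6.46% to 6.84%) were kept out of library sizes. Of the 56 genes, 19 share exon sequence with a gene on the other strand and 4 (BUB1B, CENPA, PRC1 and NUSAP1) with one on the same strand.

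Counts were scaled to the total of all gene counts, after the study's use of a total size factor, and 1 scaled count was added (Python 3.11.15, numpy 2.4.6, pandas 2.3.3). Genes with a mean of at least 1 CPM were tested, and 14269 of 29056 with a count passed. A call needed a 2-fold ratio and a 95% delta-method Poisson interval excluding 1. Its code was tested on counts simulated with Poisson noise only, which says nothing about calls under spread between cultures. Values in every library were named for the lowest and highest palbociclib ratio of each role group, the 5 highest indisulam ratios, all genes called in the combination against untreated or for departure from additivity, and 7 genes set by name. Other genes were named to complete a complex, a group or a count, after their values were seen. Alternatives were TMM (edgeR 4.0.16), median-of-ratios and upper-quartile scaling, other pseudocounts, filters, fold thresholds and intervals. Gene positions are from GENCODE on GRCh38, and promoters from RefSeq. The 56 genes and all other lists were chosen with earlier results of these data known.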

Additional observations from a re-analysis of the deposited data

How the results depend on the processing

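No called value changed sign under any alternative. The median ratio of the combination to untreated changed sign, from 0.03 to -0.02 under TMM and -0.05 under median-of-ratios scaling, with 26 and 25 genes above 0 in place of 30. The counts of genes lowered by palbociclib (28 to 41), raised in the combination over palbociclib (27 to 47) and restored (18 to 28) kept within 1.5 times their main values. A 1.5-fold threshold moved 4 counts: genes higher with indisulam were 24 in place of 3 (17.3% of all genes), genes called in either direction in the combination against untreated 17 in place of 5 (42.6%), genes lower in the combination than with indisulam 24 in place of 5 (10.3%), and departures from additivity 24 in place of 13 (19.1%). Single calls were lost in 5 cases under TMM, 6 under median-of-ratios, 5 under upper-quartile scaling and 1 with a pseudocount of 5. These were PRC1 and CCNB1 with palbociclib and CENPF, NDC80, PRC1, CDCA3 and TACC3 in the combination over palbociclib. No filter and an exact binomial interval changed no call. Leaving out a replicate was not possible with 1 library per group. No paired analysis was possible because there is 1 library per group. Counting error was small for most genes, but the spread between cultures is unknown, and genes under 100 counts, such as SPC25 and CDC25C, have wide intervals.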
